A study of Homo sapiens with 12 samples.

Results

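The 4 plasmid groups of a transfection study were read as a 2 by 2 design, and the main effect of the SEMA5A extracellular domain was measured over all 12 of its 12 arrays. The 6 arrays of cells given a plasmid that encodes the extracellular domain, 3 with the domain alone (ECD) and 3 with the full-length protein (Full), were set against the 6 arrays of cells whose plasmid lacks it, 3 with the intracellular domain (ICD) and 3 with a control plasmid (Empty). The contrast was the mean of ECD and Full minus the mean of ICD and Empty. It is the average of a pair of simple effects that share no array: ECD minus Empty, where no plasmid carries the intracellular domain, and Full minus ICD, where both do.

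All cells were labelled A549, an established cell line derived from a human lung carcinoma, kept in serum and transfected with jetPRIME, and total RNA was taken 24 h later. Every group therefore received a plasmid and the reagent, and no untransfected cells were among the samples. The labels number the 3 arrays of each group without stating that they came from separate transfections. The p-values thus describe differences relative to the spread between arrays, part or all of which may be technical, and 3 arrays per group limit the precision. The sources used here do not give the promoter or tags of the plasmids, or the share of cells that took them up.

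SEMA5A is a membrane-spanning semaphorin, a guidance cue whose extracellular part holds the sema domain that engages plexin receptors and a run of thrombospondin repeats, and whose cytoplasmic tail is short. Much of what follows concerns the interferon response. In that pathway sensors of foreign RNA or DNA in the cytosol switch on interferon genes, secreted interferon binds its receptors, and a transcription factor complex that holds IRF9 binds the interferon-stimulated response element (ISRE) in the promoters of antiviral genes.

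Between 18659 and 20366 of 47323 probes per array exceeded background at a detection p under 0.05, and arrays correlated across genes at r = 0.989 to 0.996 within groups and 0.983 to 0.993 between them. On the first principal component, with 31.5% of the variance, the ECD arrays (-20.7 to -19.4) and the ICD arrays (-6.38 to -3.44) lay on one side and the Full arrays (3.26 to 18.7) and Empty arrays (12.8 to 16.4) on the other. On the second component, with 15.5%, Full replicate 3 stood apart at 22.0, against -0.37 and 11.8 for Full replicates 2 and 1. Neither of 2 SEMA5A probes exceeded background on any array, with intensities of 85.4 to 103.6 and a lowest detection p of 0.274, so they check no label. The cell label was only in part borne out: of 16 lung epithelial and A549 markers 4 were above background on all 12 arrays (VIM, KRT8, KRT18 and NQO1), 5 on some, of which ALDH1A1 on 11, and 7 on none (CDH1, KRT19, AKR1B10, AKR1C1, NAPSA, NKX2-1 and SFTPC). AKR1C3 and 1 of the AKR1C2 probes were above background on all 12. CDKN2A, known to be deleted in A549 cells and examined after its values were seen, was above background on all 12 arrays by 2 of its 3 probes, at 7.69 to 8.89 on the log2 scale, so the cells are called here by their label only. Of 9 immune cell markers CD68 was above background on all 12 arrays, 6 on 1 to 5 arrays, with CD14 on 5, and CD3D and CD3E on none. Of 10 endothelial and fibroblast markers 4 were above it on 2 to 6 arrays, namely KDR, COL1A1, DCN and COL1A2, and 6, among them PECAM1, VWF and COL3A1, on none.

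With the extracellular domain 171 of 15338 features were higher (1.11%) and 17 were lower (0.111%), by limma with Benjamini-Hochberg adjustment over all features at an adjusted p under 0.05. A feature called at this threshold is said below to have risen or fallen. Of the 171, 144 had a gene symbol, 88 rose at least 1.5-fold and 48 at least 2-fold. Among the 17 lower features 10 had a symbol, 4 fell at least 1.5-fold and 0 at least 2-fold. All 6 arrays with the domain lay above all 6 without it for 85 of the 171 (0.554% of all features), and below for 10 of the 17 (0.0652%). Whether called or not, 92 features (0.6%) separated upward and 25 (0.163%) downward. In bulk RNA, a response in more cells and a larger response per cell cannot be told apart.

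**Figure D1:**
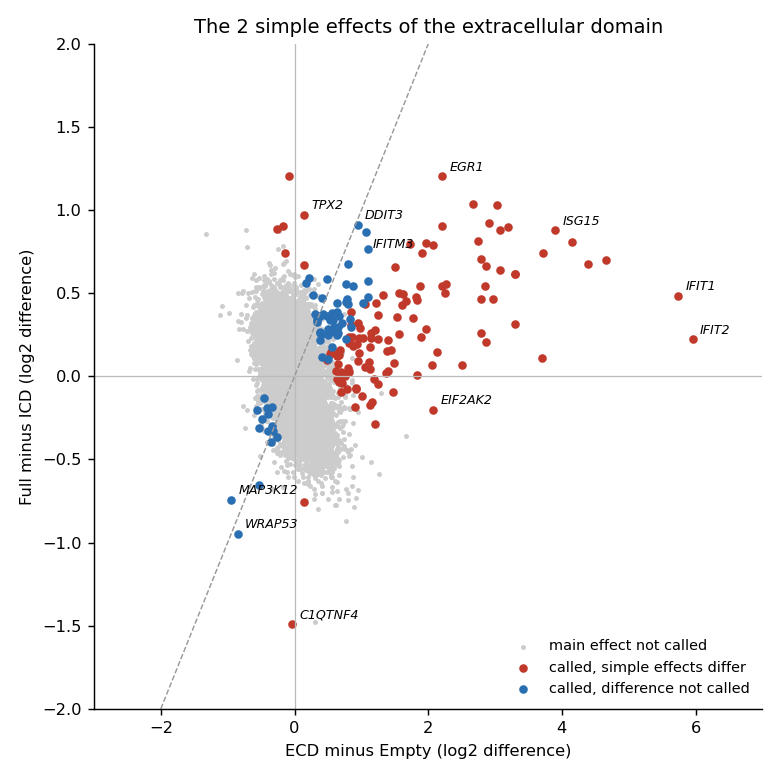
Each point is 1 of 15338 features, with the log2 difference ECD minus Empty on the x axis and Full minus ICD on the y axis, and the dashed line marks equal effects. Features with a called main effect are coloured by whether the test of the difference between the simple effects was called (red) or not (blue). IFIT2 lies farthest right at 5.96 and 0.22, DDIT3 close to the line at 0.95 and 0.91, and WRAP53 and MAP3K12 at the lower left.

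Antiviral effector genes made up the largest named group. Of 44 tested members of a list of interferon-stimulated effectors, 39 rose and 0 fell, with a median log2 main effect of 1.33 against -0.01 over all features. At an unadjusted p under 0.05, 41 were higher and 1 lower in the same limma fit, where 768 and 735 of all 15338 features were. The 5 members that were not called, named after their values were seen, were SP100 at 0.41, XAF1 at 0.25, PNPT1 at -0.03, GBP2 at -0.09 and RNF213 at -0.16 on the log2 scale. The median was smaller under other background settings: 0.98 with an offset of 50, and 0.77 on the authors' log2 values or when no background was removed.

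The 12 named genes with the largest rise all belonged to this response. They were IFIT1, IFIT2, OASL, IFIT3, IFI44, ISG15, IFI6, USP18, IFITM1, IFI27, OAS3 and HERC5. RefSeq promoters on GRCh38.p14, taken from 250 bases before to 50 after each start, were at hand for 9 of the 12, and all 9 held the ISRE core GAAANNGAA on one strand or the other. The stretches around these elements are printed because they belong to the genes with the largest main effects, each 5′ to 3′ on the strand of its gene with the core or its reverse complement in capitals. Neighbouring elements can overlap, as in ISG15 and IFIT3, and then run together. For IFI6, OAS3 and IFIT3 further elements of the promoters in the table are not shown. The first bases of the elements lay 6 to 156 bases before the start.
IFIT1: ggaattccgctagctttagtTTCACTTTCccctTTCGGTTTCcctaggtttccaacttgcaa
IFIT3: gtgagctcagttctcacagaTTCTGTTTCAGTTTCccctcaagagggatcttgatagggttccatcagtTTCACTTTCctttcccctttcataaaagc
IFI44: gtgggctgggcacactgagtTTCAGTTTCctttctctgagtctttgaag
ISG15: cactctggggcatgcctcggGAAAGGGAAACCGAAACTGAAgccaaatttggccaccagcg
IFI6: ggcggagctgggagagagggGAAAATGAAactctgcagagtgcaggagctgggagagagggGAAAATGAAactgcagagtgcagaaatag
IFITM1: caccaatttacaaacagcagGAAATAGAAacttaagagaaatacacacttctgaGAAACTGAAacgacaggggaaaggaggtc
IFI27: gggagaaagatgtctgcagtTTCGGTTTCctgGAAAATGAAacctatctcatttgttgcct
OAS3: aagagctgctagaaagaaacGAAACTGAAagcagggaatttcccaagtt
HERC5: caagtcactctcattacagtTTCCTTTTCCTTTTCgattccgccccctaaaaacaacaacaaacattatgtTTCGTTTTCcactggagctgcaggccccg
These stretches lie at chr10:89392488-89392549 for IFIT1, chr10:89332410-89332507 for IFIT3, chr1:78649752-78649800 for IFI44 and chr1:1013364-1013424 for ISG15, all on the plus strand. The stretch of IFI6 lies at chr1:27672279-27672368 on the minus strand. Those of IFITM1 at chr11:313980-314062, IFI27 at chr14:94110609-94110669, OAS3 at chr12:112938311-112938359 and HERC5 at chr4:88456975-88457074 are on the plus strand.

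The ISRE core was found in the promoters of 53 of the 114 genes that rose and had a promoter in the table (46.5%). It was found in 8.45% of the 8849 tested genes with a promoter and in 9.86% of all 27305 genes, or 8.11% of 35116 promoters of the same length. Among the risen genes whose simple effects differed, with the smaller effect in the presence of the intracellular domain, 42 of 84 held it, and among those whose difference was not called, 10 of 29. The element TTCNNNGAA, the core of the interferon gamma-activated site, which can share its last bases with an ISRE, was in 18.4% of the risen genes against 8.27% of those tested. The AP-1 site TGANTCA was in 9.65% against 6.63%, and the cAMP response element TGACGTCA in 3.51% against 3.92%, both read on either strand. Of the 7 genes that fell and had a promoter, 0 held any of these 4 motifs. These are matches of letters and say nothing about binding.

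IFIT1 binds viral RNA that lacks the host cap and blocks its translation. Its log2 intensity was 6.13, 6.30 and 6.32 on the Empty arrays and 10.05, 10.18 and 10.20 on the ICD arrays, against 10.33, 10.69 and 10.87 on the Full arrays and 11.91, 11.99 and 12.08 on the ECD arrays. The 6 arrays with the domain were above the 6 without it, but the Full arrays lay close to the ICD arrays. The main effect was 8.66-fold (log2 3.11 ± 0.09, SE, n = 6 against 6; limma adjusted p = 1.2e-11). It averaged 53.5-fold for ECD over Empty with 1.40-fold for Full over ICD, both called in the limma fit (adjusted p = 2.3e-13 and 0.039). The call for Full over ICD was lost in 10 of the 12 fits that left out 1 array (adjusted p up to 0.095). In a fit of 2 groups of 6, which counts the difference between the simple effects as spread, the main effect of IFIT1 was not called (limma adjusted p = 0.066). A second IFIT1 probe gave a main effect of 0.99 on the log2 scale.

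IFIT2, a relative that binds AU-rich RNA, read 5.41 to 5.51 on the Empty arrays, 9.84 to 9.98 on the ICD arrays, 9.84 to 10.40 on the Full arrays and 11.28 to 11.56 on the ECD arrays. Its groups overlapped, since the lowest Full array was level with the lowest ICD array. Its main effect of 8.52-fold rested on ECD minus Empty at 62.1-fold, while Full minus ICD was not called, at 0.22 on the log2 scale with a 95% interval of -0.04 to 0.49. HERC5, a ligase that attaches ISG15 to new proteins, had the same shape, with a main effect of 3.75-fold, 13-fold for ECD over Empty and 0.11 on the log2 scale (interval -0.12 to 0.34) for Full minus ICD.

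ISG15, a ubiquitin-like modifier, separated the groups fully. It read 8.80, 8.95 and 9.02 on the Empty arrays, 10.97, 11.11 and 11.22 on the ICD arrays, 11.88, 11.98 and 12.08 on the Full arrays and 12.65, 12.81 and 13.01 on the ECD arrays. Every plasmid that carries the extracellular domain gave more signal than both that lack it. The main effect was 5.24-fold (log2 2.39 ± 0.08, SE, n = 6 against 6; limma adjusted p = 4.5e-11), with 14.9-fold for ECD over Empty and 1.84-fold for Full over ICD. USP18, the protease that removes ISG15 and restrains the interferon receptor, rose 4.13-fold, with 9.13-fold and 1.86-fold as its simple effects, and was above background on 2 of the 3 Empty arrays.

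OASL, IFIT3 and IFITM1 were above background on 0 of the 3 Empty arrays, so their changes are lower bounds. Each bound sets the mean of the brighter group against the dim arrays at the lowest normalized signal called above background there, or at the probe's own value where that was higher. OASL, a ubiquitin-like relative of the oligoadenylate synthetases, was at least 5.68-fold higher with the domain (limma adjusted p = 2e-11). IFIT3, a partner of IFIT1, was at least 5.61-fold higher, and IFITM1, which hinders virus entry at the membrane, at least 3.95-fold higher. Full over ICD, measured on both sides, was 1.63-fold, 1.60-fold and 2.04-fold for these genes in that order, each called. Other probes of OASL and IFIT3 gave smaller main effects, 0.89 for OASL and 0.66 and 2.35 for IFIT3 on the log2 scale.

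The other leading genes had the same order of simple effects. IFI44, a cytoplasmic protein of unsettled function, rose 5.57-fold, and IFI6, an inhibitor of cell death and virus replication, 4.68-fold. IFI27, a mitochondrial relative of IFI6, rose 3.94-fold and OAS3, an enzyme that makes the signal for RNase L, 3.77-fold. In all 4, Full minus ICD was called, at 0.74 to 0.92 on the log2 scale, and was below ECD minus Empty at 2.91 to 4.15. IFI27 was above background on 2 of the 3 Empty arrays. A second OAS3 probe gave a main effect of 1.13 on the log2 scale, against 1.92 for the probe used. Family members with like sequences, such as the IFITM and HLA genes, may share signal between probes.

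**Figure D2:**
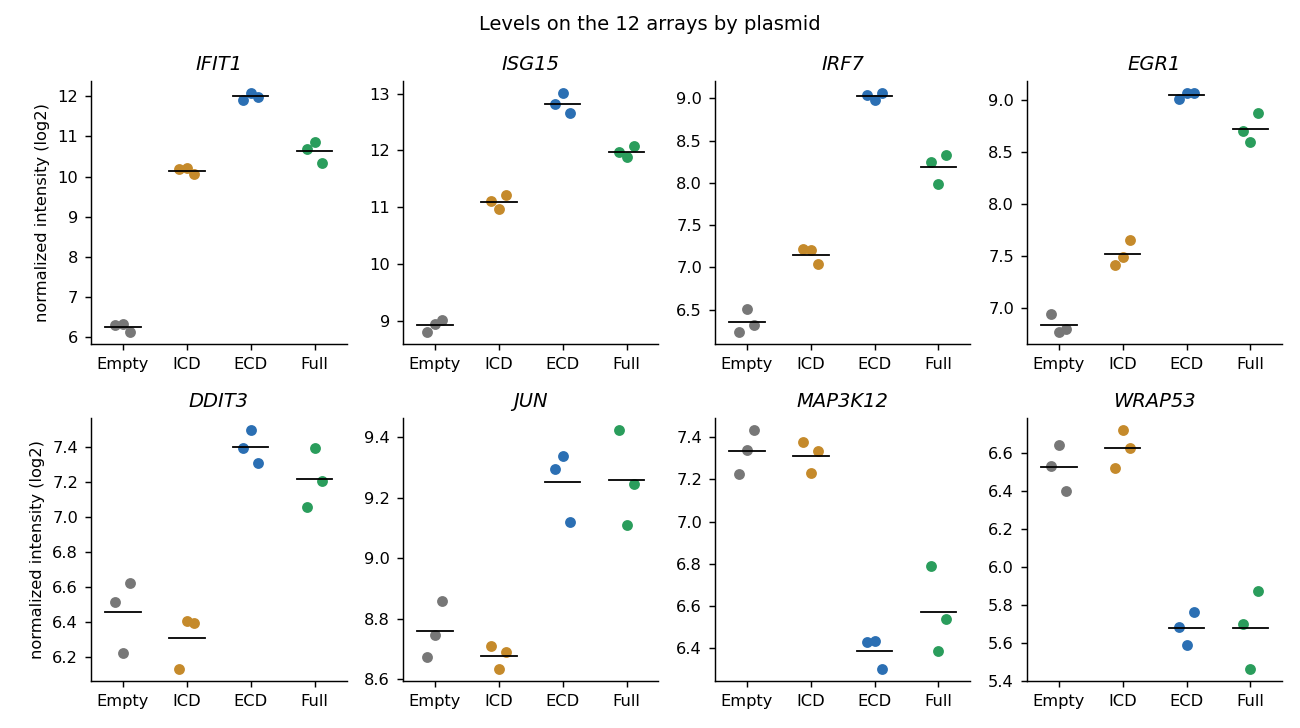
Normalized log2 intensity of 8 genes on each of the 12 arrays, with 1 panel per gene and its own axis; points are arrays and lines are means of 3. IFIT1, ISG15, IRF7 and EGR1 are lowest in Empty and highest in ECD. DDIT3 and JUN are at like levels in Empty and ICD and higher in ECD and Full, and MAP3K12 and WRAP53 are lower in both plasmids with the extracellular domain.

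Genes upstream of these effectors moved in smaller numbers. Of 18 tested members of a list of interferon receptors and JAK-STAT signalling 4 rose and 0 fell, with 4 higher and 0 lower at an unadjusted p under 0.05, and the list's median was 0.06. Of all 15338 features 1.11% rose and 0.111% fell, and 768 were higher and 735 lower at that unadjusted p. The 4 risen genes were USP18, given above, and transcription factors of the IRF family. IRF7, which drives interferon genes, read 6.23 to 6.50 on Empty, 7.04 to 7.21 on ICD, 7.99 to 8.33 on Full and 8.98 to 9.06 on ECD arrays. Its groups did not overlap, and the main effect was 3.62-fold (log2 1.86 ± 0.08, SE, n = 6 against 6; limma adjusted p = 4e-10). IRF9, the DNA-binding subunit of the complex at the ISRE, rose 3.44-fold and IRF1 1.75-fold.

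Of 15 tested nucleic acid sensors and adaptors 6 rose and 0 fell (8 higher and 1 lower at an unadjusted p under 0.05), with a median of 0.19. Over all 15338 features 1.11% rose and 0.111% fell (768 higher and 735 lower at that unadjusted p). IFIH1 and RIGI, helicases that recognise viral RNA in the cytosol, rose 3.51-fold and at least 2.73-fold. Their groups overlapped: on the ICD arrays IFIH1 read 8.00 to 8.16, against 8.05 to 8.65 on the Full arrays. EIF2AK2, the kinase PKR that halts translation on double-stranded RNA, read 8.26 to 8.36 on the Empty arrays, 9.02 to 9.13 on the ICD, 8.48 to 9.11 on the Full and 10.33 to 10.46 on the ECD arrays. The Full arrays lay within or below the range of the ICD arrays, and the Empty arrays lay below all others. The main effect of EIF2AK2, 1.92-fold, thus rested on ECD minus Empty at 2.08 on the log2 scale. Full minus ICD was -0.20 (interval -0.49 to 0.09). TRIM25, the ligase that activates RIGI, rose 1.68-fold and separated the groups fully. ADAR and TLR3, named after their values were seen, were the other risen sensors, at 0.72 and 0.32.

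IFNB1, the interferon beta gene, was above background on 3 of 12 arrays, all of them ECD. It read 5.53, 5.65 and 5.95 there, against 4.24 to 4.32 on the 6 arrays without the domain and 4.40 to 4.54 on the Full arrays. No fold is given for the main effect, since the Full arrays were not above background. IFNB1 passed the detection filter only through the ECD arrays, where it was high. Its call in the limma fit is therefore not read as a result. ECD over Empty was at least 2.04-fold. IFNE, the other tested interferon gene, was near background at 4.61 to 5.28 by its brightest probe and was not called, with a main effect of -0.15. The genes IFNA1, IFNA2, IFNG, IFNK, IFNL1, IFNL2, IFNL3 and IFNW1 were above background on 0 arrays.

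Genes of antigen presentation on HLA class I rose in 9 of 16 tested cases and fell in 0, with 12 higher and 1 lower at an unadjusted p under 0.05 and a median of 0.38. The shares over all 15338 features were 1.11% and 0.111%, with 768 higher and 735 lower at that unadjusted p. TAP1, a subunit of the peptide transporter, rose 2.66-fold, by 4.80-fold in ECD over Empty and 1.47-fold in Full over ICD, the latter not called without ICD replicate 1 or Full replicate 3 (limma adjusted p = 0.059 and 0.053). PSMB9, an immunoproteasome subunit, read 4.97 to 5.21 on Empty, 4.77 to 4.90 on ICD, 5.53 to 5.63 on Full and 6.01 to 6.24 on ECD arrays, with no overlap. It rose 1.91-fold, with simple effects of 1.10 and 0.77 on the log2 scale whose difference was not called (limma adjusted p = 0.099) but was called with median scaling, at -0.53 (adjusted p = 0.02). PSMB8, its neighbour in the immunoproteasome, rose 1.43-fold by the probe used (log2 0.51), while other probes gave 0.49 and 0.23. Its call in Full minus ICD was lost in 11 of the 12 fits that left out 1 array. HLA-E, a ligand of natural killer cell receptors, rose 1.67-fold.

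In the list of NF-kB factors, chemokines and cytokines, 5 of 17 rose and 0 fell, with 9 higher and 0 lower at an unadjusted p under 0.05 and a median of 0.17. Among all 15338 features 1.11% rose and 0.111% fell, with 768 higher and 735 lower at that unadjusted p. CCL5, a chemokine for T cells, read 5.62 to 5.98 on the Empty arrays, 6.17 to 6.74 on the ICD, 6.82 to 7.09 on the Full and 7.33 to 7.49 on the ECD arrays, and rose 2.03-fold. CXCL10, a chemokine induced by interferon, was at least 1.73-fold higher, with no call in the fit of 2 groups of 6 (limma adjusted p = 0.065). TNFAIP3, a brake on NF-kB above background on 1 of the 3 Empty arrays, rose 1.48-fold, which was not called without background correction (limma adjusted p = 0.058). NFKBIZ rose 1.34-fold by 1 probe, while its other probe gave -0.06 on the log2 scale. By the probe used, Full minus ICD was 0.03 and was not called. NFKBIA, the last of the 5, was named after its values were seen and had 0.40.

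**Figure D3:**
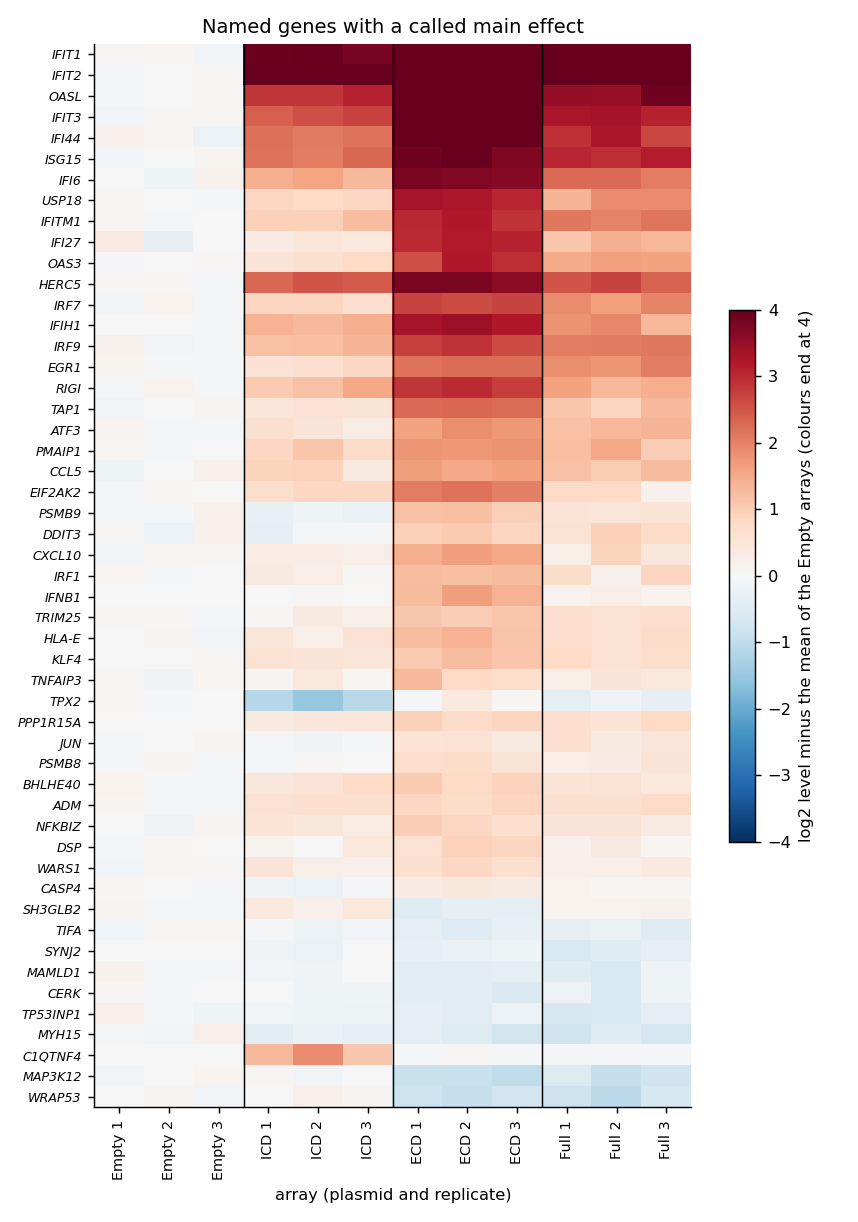
Log2 level of each named gene with a called main effect (rows) on each of the 12 arrays (columns), as the difference from the mean of the Empty arrays, with colours ending at 4 in each direction. The leading interferon-stimulated genes are raised in ICD, ECD and Full, most in ECD. TPX2 and C1QTNF4 stand out on the ICD arrays alone, TPX2 lower and C1QTNF4 higher.

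Immediate early genes, which respond to signalling within minutes, included EGR1, the gene symbol with the largest rise outside the interferon and sensor lists. Of 31 tested 6 rose and 0 fell, with 15 higher and 0 lower at an unadjusted p under 0.05 and a median of 0.15. Over all 15338 features 1.11% rose and 0.111% fell, with 768 higher and 735 lower at that unadjusted p. EGR1, a zinc finger factor downstream of ERK, read 6.77, 6.80 and 6.94 on the Empty arrays, 7.41, 7.49 and 7.66 on the ICD arrays, 8.59, 8.70 and 8.87 on the Full arrays and 9.01, 9.06 and 9.07 on the ECD arrays. The 6 arrays with the domain were all above the other 6, and the Full arrays were nearer to ECD than to ICD. The main effect was 3.27-fold (log2 1.71 ± 0.07, SE, n = 6 against 6; limma adjusted p = 4.1e-10), and both simple effects were large, at 4.64-fold and 2.30-fold. Full minus ICD for EGR1, 1.20, was larger than the 0.49 of IFIT1 on the log2 scale.

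ATF3, a stress-induced repressor of the ATF family, read 4.98 to 5.15 on Empty, 5.32 to 5.69 on ICD, 6.21 to 6.39 on Full and 6.64 to 6.90 on ECD arrays, and rose 2.40-fold. JUN, a subunit of AP-1, read 8.67 to 8.86 on Empty and 8.63 to 8.71 on ICD arrays, against 9.11 to 9.43 on Full and 9.12 to 9.34 on ECD arrays. Its simple effects were 0.49 and 0.58, and their difference of 0.09 (interval -0.22 to 0.40) was not called. KLF4 rose 1.57-fold (log2 0.65), with ECD minus Empty at 1.13 and Full minus ICD at 0.18, while a second probe gave a main effect of 0.32 and -0.10 for Full minus ICD. A list of ERK pathway outputs, among them the DUSP and SPRY feedback genes, had 0 of 17 called in the main effect by limma (1 higher and 2 lower at an unadjusted p under 0.05). Its simple effects were opposed. In ECD minus Empty 6 were called higher and 1 lower (median 0.24), against 6.04% and 5.37% of all features. In Full minus ICD 0 were higher and 3 lower (median -0.10), against 2.01% and 2.99%. The difference was called higher for 1 and lower for 7, against 10.4% and 12.3%.

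In the integrated stress response, in which phosphorylation of eIF2 slows translation and raises ATF4, 3 of 31 tested genes rose and 0 fell, with 7 higher and 1 lower at an unadjusted p under 0.05 and a median of 0.11. Among all 15338 features 1.11% rose and 0.111% fell, with 768 higher and 735 lower at that unadjusted p. DDIT3, the factor CHOP, read 6.22, 6.52 and 6.63 on the Empty arrays and 6.13, 6.39 and 6.40 on the ICD arrays, against 7.06, 7.21 and 7.39 on the Full arrays and 7.31, 7.40 and 7.50 on the ECD arrays. Both plasmids with the extracellular domain were above both without it, and the simple effects were 1.93-fold and 1.88-fold. The main effect was 1.90-fold (log2 0.93 ± 0.09, SE, n = 6 against 6; limma adjusted p = 8.9e-06), and the difference between the simple effects was -0.04 with an interval of -0.41 to 0.34. PPP1R15A, which reverses the eIF2 phosphorylation, rose 1.46-fold and WARS1, a tRNA synthetase also induced by interferon, 1.26-fold. For neither was Full minus ICD called, at 0.23 for PPP1R15A and -0.04 for WARS1 on the log2 scale.

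Few other processes held risen genes, where 1.11% of all features rose. Among apoptosis regulators 2 of 21 rose: PMAIP1, the protein NOXA, 2.09-fold and CASP4, an inflammatory caspase, 1.23-fold. Hypoxia and glycolysis genes rose in 2 of 30 cases, namely the peptide hormone gene ADM and the repressor BHLHE40, both 1.34-fold. DSP, which encodes desmoplakin of cell junctions, rose 1.32-fold and was 1 of 16 in the epithelial, mesenchymal and matrix protease list. PMAIP1, CASP4, ADM, BHLHE40 and DSP were each called in ECD minus Empty, at 0.38 to 1.77 on the log2 scale. Full minus ICD was called for none of them, at 0.35, 0.22, 0.05, -0.08 and 0.02 in that order. TPX2, a spindle assembly factor and the only risen gene of 49 for mitosis, read 8.81 to 9.22 on the ICD arrays and 9.95 to 10.73 on the other 9. Its main effect of 1.47-fold therefore came from the ICD arrays: Full over ICD was 1.96-fold and ECD minus Empty was 0.14 (interval -0.14 to 0.43). The calls of CASP4, DSP and WARS1 were lost in 7, 9 and 11 of the 12 fits that left out 1 array, with limma adjusted p-values of up to 0.14.

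WRAP53 and MAP3K12 fell most among genes measured in every group. WRAP53 encodes a protein that brings telomerase to Cajal bodies. It read 6.40, 6.53 and 6.64 on the Empty arrays and 6.52, 6.62 and 6.72 on the ICD arrays, against 5.46, 5.70 and 5.87 on the Full arrays and 5.59, 5.68 and 5.76 on the ECD arrays. All 6 arrays with the domain were below all 6 without it, and it fell 1.86-fold (log2 -0.90 ± 0.08, SE, n = 6 against 6; limma adjusted p = 4.5e-06). MAP3K12, a kinase upstream of JNK best known from axon injury, read 7.22 to 7.44 on Empty and 7.23 to 7.38 on ICD arrays, against 6.38 to 6.79 on Full and 6.30 to 6.44 on ECD arrays. It fell 1.79-fold (limma adjusted p = 5.7e-06), by -0.94 in ECD minus Empty and -0.74 in Full minus ICD on the log2 scale. The differences between their simple effects were not called, at -0.10 for WRAP53 (interval -0.44 to 0.24) and 0.20 for MAP3K12 (interval -0.13 to 0.53).

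The other fallen genes changed less and depended on single arrays. MYH15, a myosin heavy chain, fell 1.34-fold, TP53INP1, a p53 target that promotes autophagy, 1.29-fold, CERK, a ceramide kinase, 1.29-fold and MAMLD1, a transcriptional co-activator, 1.29-fold. SYNJ2, a phosphoinositide phosphatase, fell 1.24-fold and SH3GLB2, an endophilin relative, 1.23-fold, and TIFA, an adaptor of NF-kB signalling, was at least 1.07-fold lower. The calls of these 7 were lost in 5 (MYH15) to 11 (MAMLD1) of the 12 fits that left out 1 array. TP53INP1 was the only called gene among 17 p53 targets (2 higher and 3 lower at an unadjusted p under 0.05), where 0.111% of all features fell. Its second probe gave -0.23 on the log2 scale against -0.37. C1QTNF4, a secreted C1q relative, was above background only on the 3 ICD arrays, at 5.44, 5.64 and 6.24 against 4.26 to 4.40 elsewhere. Its called main effect, for which no fold is given, was thus a feature of the ICD arrays, and Full was at least 2.11-fold lower than ICD. C1QTNF4 passed the detection filter only through the ICD arrays, so its call is not read as a result.

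Semaphorin receptors and plexin signalling held no called main effect. Of 19 tested semaphorins and receptors 0 were called by limma (1 higher and 1 lower at an unadjusted p under 0.05), with a median of -0.02. PLXNB3, the plexin known to bind SEMA5A, was above background on 0 of 12 arrays. PLXNA1 read 7.24 to 7.43 on Empty, 7.35 to 7.41 on ICD, 6.94 to 7.31 on Full and 7.11 to 7.14 on ECD arrays. Its main effect was -0.22 with an interval of -0.37 to -0.07 and a limma adjusted p of 0.23, and the groups overlapped. In Full minus ICD 1 of the 19 was called lower, where 2.99% of all features were. For the difference between the simple effects 1 was higher and 1 lower, where 10.4% and 12.3% of all features were. Of 42 plexin effectors and actin regulators 3 were called higher and 3 lower in ECD minus Empty, where 6.04% and 5.37% of all features were. In Full minus ICD 2 of them were called lower, against 2.99% of all features. The intervals of the main effect were -0.33 to 0.01 for the co-receptor NRP1, -0.30 to 0.07 for PLXNB2, -0.08 to 0.36 for PLXNA3 and -0.24 to 0.23 for PLXNA4.

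MET, the receptor of hepatocyte growth factor and a known partner of plexins, showed how the main effect can hide unequal simple effects. It read 8.29 to 8.48 on Empty, 8.53 to 8.58 on ICD, 8.14 to 8.25 on Full and 8.51 to 8.65 on ECD arrays. The main effect was -0.07 (interval -0.20 to 0.06). Full minus ICD was -0.36 and was called (limma adjusted p = 0.034), though not without any 1 of the ICD arrays, Full replicate 1 or Full replicate 3 (adjusted p up to 0.087), ECD minus Empty was 0.22 and was not, and their difference of -0.58 was called (adjusted p = 0.0049). Over 17 lists with no called main effect, which include plexin effectors and actin regulators, integrins, DNA replication, histones, the respiratory chain, ribosomal proteins and the cell type markers, 0 of 355 genes were called by limma, 13 were higher and 14 lower at an unadjusted p under 0.05, and list medians ran from -0.19 to 0.06. Of all 15338 features, 768 were higher and 735 lower at that unadjusted p.

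**Figure D4:**
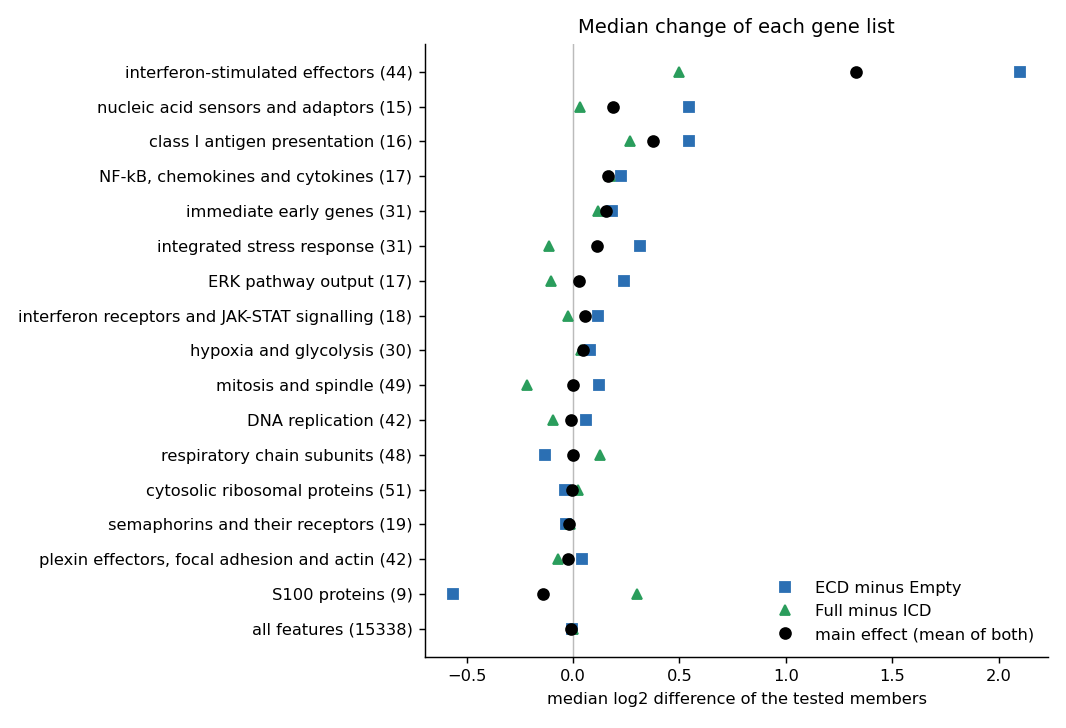
Median log2 difference of the tested members of 16 gene lists and of all features, for ECD minus Empty (squares), Full minus ICD (triangles) and the main effect (circles); the number of tested members is in brackets. The effector list has medians of 2.10, 0.50 and 1.33 in that order. The S100, mitosis and respiratory chain lists have simple effects of opposite sign and smaller main effects.

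How far the main effect stands for both simple effects was tested through their difference. ECD minus Empty alone called 927 features higher (6.04%) and 823 lower (5.37%). Full minus ICD called 308 higher (2.01%) and 459 lower (2.99%). The difference between them was called for 3495 features, 1602 higher (10.4%) and 1893 lower (12.3%), and 3370 of these had no called main effect. Scaling arrays by their medians in place of quantiles moved the median of all features by 0.12 in ECD minus Empty and by -0.14 in the difference. The calls then split into 2132 higher and 166 lower for ECD minus Empty and 591 higher and 2909 lower for the difference, so these splits depend on the scaling.

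Of the 171 risen features, 48 were called in both simple effects, 114 in ECD minus Empty only, 9 in Full minus ICD only and 0 in neither. The median log2 difference of the 171 was 0.96 in ECD minus Empty and 0.30 in Full minus ICD. The test of the difference was called for 123 of them, with the smaller effect in the presence of the intracellular domain for 117 and the larger for 6. The 6 were TPX2, SNHG15, HNRNPA1P10, HNRNPA1L2 and 2 unnamed probes, of which all but TPX2 were named after their values were seen. HNRNPA1P10 and HNRNPA1L2 are near copies of HNRNPA1, so their probes may share signal. For the other 48 the difference was not called and the simple effects had the same sign.

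The effector list showed the same pattern, with 40 of 44 higher in ECD minus Empty, 24 of 44 in Full minus ICD and 34 called smaller in the presence of the intracellular domain. The exceptions among effectors included IFITM3, a restriction factor of virus entry named after its values were seen, with simple effects of 1.07 and 0.87 and an adjusted p of 0.53 for their difference in limma. Called in both simple effects with no called difference were 12 risen features, among them DDIT3, JUN, PSMB9, PSMB8 and IFITM3, and 4 fallen features, WRAP53, MAP3K12 and 2 unnamed probes. With median scaling the difference was called for PSMB9, as given above, and for PSMB8 (-0.54 against -0.30, limma adjusted p = 0.031). Of the 17 fallen features 15 had no called difference.

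Over all 15338 features the simple effects were opposed more often than alike: 31.7% had the same sign, and Pearson's r was -0.31 and Spearman's rho -0.49. These describe features that share the normalization of the arrays and are not independent. Features called in both simple effects numbered 52 in the same direction, 2.97% of the calls in ECD minus Empty and 6.78% of those in Full minus ICD. Another 284 were called in opposite directions, 185 higher and then lower and 99 the reverse, and 0 of these had a called main effect.

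In several lists the simple effects had medians of opposite sign. Over all features 6.04% were called higher and 5.37% lower in ECD minus Empty, 2.01% and 2.99% in Full minus ICD, and 10.4% and 12.3% for the difference. Of 9 tested S100 calcium-binding proteins 4 fell in ECD minus Empty and 3 rose in Full minus ICD (median log2 differences -0.56 and 0.30), and for 5 the difference was called. Of 48 respiratory chain subunits the difference was called higher for 14 and lower for 1, with medians of -0.13 and 0.13 in the simple effects. Of 49 mitosis genes it was called higher for 3 and lower for 15, with medians of 0.12 and -0.22. In the integrated stress response 13 of 31 rose and 1 fell in ECD minus Empty, 1 rose and 2 fell in Full minus ICD, and 14 had a called negative difference. These medians kept their signs under median scaling, though 0 S100 genes were then called in Full minus ICD and 8 respiratory chain genes in place of 14 had a called higher difference.

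The largest positive differences, where Full minus ICD exceeded ECD minus Empty, were those of RNU105C at 1.60, NUP43 at 1.49, RHOXF2B at 1.49 and HINT3 at 1.36 on the log2 scale. NUP43, a nuclear pore subunit, read 6.77 to 7.24 on Empty, 6.23 to 7.13 on ICD, 6.72 to 7.25 on Full and 5.70 to 6.16 on ECD arrays. It was lowest on the ECD arrays, and its main effect of -0.37 was not called. RNU105C read 5.25 on Full replicate 3, within the range of the Empty arrays, against 6.69 and 7.10 on the other Full arrays. Its call was lost without Full replicate 1, ECD replicate 3, Empty replicate 1 or ICD replicate 2 (limma adjusted p of up to 0.061) and without the detection filter (0.078). Other probes of RHOXF2B and HINT3 gave differences of only 0.09 and 0.22.

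Array numbers set a limit of design on the difference between the simple effects and, in another way, on the main effect. The labels number the ICD and ECD arrays 1 to 6 and the Full and Empty arrays 7 to 12, so the difference is also the contrast of the later with the earlier numbers. Whether arrays were handled in this order is not given, and array number and domain cannot be told apart. The first principal component, with 31.5% of the variance, also placed the ICD and ECD arrays opposite the Full and Empty arrays. The main effect is balanced over these sets, as the mean of ECD minus ICD and Full minus Empty. It is not free of array number: the arrays with the domain hold the middle numbers, and those without it the first and last. Of the 171 risen features 170 were higher in ECD minus ICD and 166 in Full minus Empty, and 75 were called in both, where ECD minus ICD called 1.11% of all features higher and 0.6% lower, 1.71% in all, and Full minus Empty 0.808% higher and 0.267% lower, 1.08% in all. For EGR1 these were 1.53 and 1.89, for ISG15 1.72 and 3.05, and for WRAP53 -0.95 and -0.85 on the log2 scale, each called.

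The extracellular domain had more called features than the intracellular domain, whose main effect called 61 higher (0.398%) and 65 lower (0.424%), 126 in all (0.821%). The test of the difference between the main effects of the domains, which equals ECD minus ICD, called 170 features higher (1.11%) and 92 lower (0.6%). IFIT1 had a main effect of 3.11 for the extracellular and 1.27 for the intracellular domain, both called, and their difference of 1.85 was called (limma adjusted p = 1.9e-07). EGR1, IRF7, ATF3, DDIT3, JUN and WRAP53 had no called main effect of the intracellular domain, at 0.18, -0.02, 0.02, -0.16, -0.04 and 0.05 on the log2 scale. For each of these the difference between domains was called. In EGR1, IRF7 and ATF3 this average held opposed effects, since every ICD array lay above every Empty array. Every Full array lay below every ECD array in these genes. IRF7 read 6.23 to 6.50 on Empty and 7.04 to 7.21 on ICD arrays, but 8.98 to 9.06 on ECD and 7.99 to 8.33 on Full arrays.

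Single arrays moved some of these counts. The number of risen features was 133 to 171 when each of the 12 arrays was left out in turn. The number of fallen features was 6 without ECD replicate 2, 9 without ECD replicate 3, Empty replicate 1, Empty replicate 3 or Full replicate 1, 10 without Empty replicate 2, 11 without ICD replicate 1, and up to 23 without other arrays. Full minus ICD called 607 features higher without Full replicate 2 but 97 without Full replicate 3, 122 without Full replicate 1, 102 without ICD replicate 1, 95 without ICD replicate 2 and 205 without ECD replicate 2. It called 981 lower without Full replicate 2 and between 91 and 305 without any of the other arrays of Full and ICD, ECD replicates 2 or 3 or Empty replicates 1 or 2. ECD minus Empty called 371 to 572 higher and 238 to 456 lower without any 1 of its own 6 arrays. Of the 51 named genes with a called main effect, 41 kept the call in every fit without 1 array.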

How the data were processed

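Total RNA of 12 A549 samples, 3 for each of 4 plasmids, was hybridized as biotin-labelled cRNA to single-colour Illumina bead arrays, per the labels. For 47323 probes the deposited table gives, per array, a linear intensity from which no background was subtracted, and a detection p-value. The authors also deposited log2 values, which equal quantile-normalized log2 intensities within 5e-09. The scanner's software and how beads were summarised: not given in the sources used here. Groups came from the sample titles, and the number of unused sample columns was 0.

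The neqc function of limma 3.58.1 (R 4.3.3) corrected background by normexp, using the detection p-values, added an offset of 16, and normalized by quantiles to the log2 scale. The offset shrinks fold changes of dim probes. Probes with a detection p under 0.05 on every array of at least 1 group were kept (18728 probes), and the brightest probe stood for each symbol, giving 15338 features, 10912 with a symbol. Probe symbols came from the platform annotation (30113 probes with 1 symbol, 8 with several, 17202 with none), of which 30074 matched RefSeq. One fit of 4 group means (lmFit, eBayes, 8 residual and 6.50 prior degrees of freedom) gave all contrasts, two-sided, with Benjamini-Hochberg adjustment over all features. Errors are standard errors and intervals 95%.

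The rule of the contrast, the 30 lists with 853 genes and the naming rule were chosen with earlier results of these data known. Named were the 12 largest called changes in each direction, the 8 largest with full separation of 6 from 6 arrays, the 4 largest differences between the simple effects in each direction, up to 4 called members of each list by adjusted p, and SEMA5A, PLXNB3, MET, IFNB1 and the semaphorin receptors. Lists are described by counts and medians, with no set test. Promoters and gene names came from RefSeq tables (GRCh38.p14). The steps were tested on simulated data. Alternatives changed the background step and offset, the scaling, the filter, how probes stood for genes, the threshold, the variance model and the weights of arrays, or pooled groups, added a replicate block or left out each array. Figures used matplotlib 3.10.9 under Python 3.11.15.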

Additional observations from a re-analysis of the deposited data

Results flagged for a closer look

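The effect of the extracellular domain differed with the intracellular domain, by the limma test of the difference itself (Full minus ICD, less ECD minus Empty), for 3495 features, 42 of them named here. Values are log2 differences. IFNB1 was above background only on the ECD arrays and C1QTNF4 only on the ICD arrays, and each passed the detection filter only through them. The calls of IFNB1 and C1QTNF4 are therefore not read as results. OASL, IFIT3, IFITM1, RIGI and CXCL10 also had a group that was not above background. The values of these genes are therefore not measured sizes. The labels' array numbers divide the groups in the same way, as given above, and their part in these results was not tested.

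Among interferon-stimulated effectors the differences were -5.73 for IFIT2, -5.26 for IFIT1, -3.96 for OASL, -3.72 for IFIT3, -3.59 for HERC5, -3.34 for IFI44, -3.02 for ISG15, -2.97 for IFI6, -2.20 for IFI27, -2.0 for IFITM1 and -1.99 for OAS3. The effect was smaller with the intracellular domain in all of these. The sensors and signalling genes had -2.99 for IFIH1, -2.67 for RIGI, -2.29 for USP18, -2.28 for EIF2AK2, -1.94 for IRF9, -1.64 for IRF7, -0.88 for IRF1 and -0.62 for TRIM25. Antigen presentation genes had -1.71 for TAP1 and -1.03 for HLA-E.

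Cytokine and NF-kB genes had -1.30 for CXCL10, -1.28 for IFNB1, -1.18 for CCL5, -0.79 for NFKBIZ and -0.75 for TNFAIP3. Early and stress genes had -1.01 for EGR1, -0.95 for KLF4, -0.93 for ATF3, -0.75 for WARS1 and -0.63 for PPP1R15A. Of the others, PMAIP1 had -1.42, C1QTNF4 -1.46, BHLHE40 -1.0, DSP -0.77, ADM -0.75 and MET -0.58. C1QTNF4 and MET were lower in Full minus ICD than in ECD minus Empty. The difference was positive, with Full minus ICD above ECD minus Empty, for TPX2 at 0.83, HINT3 at 1.36, RHOXF2B and NUP43 at 1.49 each, and RNU105C at 1.60.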

How the results depend on the processing

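No named gene changed the sign of a called effect under any alternative. The replicate numbers did not pair the arrays: same-numbered arrays of different groups had deviations correlated at -0.0853 to 0.118, and others at -0.154 to 0.104, and with the replicate block 161 features rose and 15 fell. Risen features, 171 in the fit reported, numbered 82 with 2 groups of 6 and 94 with an additive model, which by construction put the difference between the simple effects into the residual; named genes that then lost the call include IFIT2, HERC5, EIF2AK2 and IFNB1 in both, IFIT1 and CXCL10 with 2 groups, and RIGI with the additive model. The 17 fallen features became 3 and 4 in these fits, 3 at an adjusted p under 0.01, 7 with median scaling, 34 with an offset of 50, 37 with a variance trend, 47 on the authors' values or with no background step, and 59 with array weights. The 927 higher and 823 lower features of ECD minus Empty became 2132 and 166 with median scaling, 1680 and 1577 with array weights, and 308 and 157 at 0.01. The 308 and 459 of Full minus ICD became 604 and 781 with an offset of 50, 667 and 834 on the authors' values or with no background step, 90 and 199 with median scaling, 551 and 749 with a variance trend, 645 and 932 with array weights, and 42 and 35 at 0.01. The 1602 and 1893 of the difference became 591 and 2909 with median scaling and 637 and 836 at 0.01. Leaving out 1 array gave 133 to 171 risen and 6 to 23 fallen features, 371 to 1204 and 238 to 1074 for ECD minus Empty, 95 to 607 and 91 to 981 for Full minus ICD, and 1151 to 1939 and 1390 to 2259 for the difference; a group left with 2 arrays is assumed to vary like the others. Requiring detection on all 12 arrays left 40 of the 51 called named genes to test, all 40 called. Except where a construction is named, the cause was not tested. Probes near background limit what can be measured.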
